A study of Mus musculus with 15 samples.

Results

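Macrophages, and microglia as the macrophages of the brain, were followed here through 10 genes chosen by symbol: Csf1r, C1qa, C1qb, C1qc, Adgre1, Cd68, Cx3cr1, Aif1, Lyz2 and Ctss. They are 10 of the 31017 genes counted in every library, and all 10 were present in all 15 libraries' tables. These 10 and all other gene lists used here were chosen with earlier results of these data known. Shares called among them are therefore a description beside the shares over all genes. The study examined epigenetic and expression changes that go with a dominant mutation of Dnmt1, the maintenance DNA methyltransferase, in mice labelled WT, Het and Hom; the labels name no allele and no age. RNA immunoprecipitation (RIP) with a rabbit anti-Dnmt1 antibody was made from tail fibroblasts fixed in 1% formaldehyde and gave 2 libraries each of WT, Het and Hom. RIP with an antibody to 5-methylcytosine (m5C), a modified RNA base, started from 1 µg mRNA and gave 2 WT, 1 Het and 1 Hom fibroblast libraries and 1 WT, 1 Het and 1 Hom library of cortex. A single library of each tissue was titled input, without a genotype and with IgG as its antibody label. The fibroblast lines were grown in 1 medium and came from same-gender littermates. The labels do not say whether libraries of 1 genotype came from separate lines or animals, so the p-values reflect only how far these particular libraries lie apart, possibly for technical reasons. Because no input of each genotype was used here, a difference in RNA pulled down cannot be told apart from a difference in the amount of that RNA, and fewer cells of a type cannot be told apart from less RNA per cell.

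Macrophages and microglia depend on Csf1r, the receptor for the growth factors Csf1 and Il34. C1qa, C1qb and C1qc encode the chains of C1q, which starts the classical complement pathway and which macrophages and microglia secrete; microglia are the main source of C1q in the brain. Adgre1 encodes the F4/80 surface protein, Cd68 a glycoprotein of late endosomes and lysosomes, Cx3cr1 the receptor for fractalkine (Cx3cl1), Aif1 the actin-binding protein Iba1, Lyz2 a secreted lysozyme of myeloid cells and Ctss the lysosomal protease cathepsin S. In healthy brain, microglia carry Cx3cr1, Csf1r and Aif1 and have little Lyz2, whereas macrophages of other tissues carry abundant Lyz2.

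On mm10, the 3 C1q genes lie side by side on the minus strand of chromosome 4, C1qb at chr4:136880129-136886187, C1qc at chr4:136889804-136893065 and C1qa at chr4:136895917-136898803, each with 3 exons. Lyz2 (4 exons) lies at chr10:117277331-117282321 and Cd68 (6 exons) at chr11:69664213-69666153, both on the minus strand. The stretches upstream of C1qb, C1qc, Lyz2 and Cd68 are shown because the first 3 of these genes were higher in the Dnmt1 RIP libraries numbered 2 than in those numbered 1, a test that Cd68 did not pass; a motif match describes only the letters in the window. They were taken from RefSeq promoters on GRCm38.p6, 5′ to 3′ on the gene's strand, and cut where they would enter the annotated gene. Capitals mark AGGAAG on either strand (read as CTTCCT on the minus strand), a form of the core bound by the myeloid factor PU.1 and other ETS proteins, in the first 3, and TGAGTCA, the AP-1 element, in Cd68.
C1qb, chr4:136886201-136886450, minus strand: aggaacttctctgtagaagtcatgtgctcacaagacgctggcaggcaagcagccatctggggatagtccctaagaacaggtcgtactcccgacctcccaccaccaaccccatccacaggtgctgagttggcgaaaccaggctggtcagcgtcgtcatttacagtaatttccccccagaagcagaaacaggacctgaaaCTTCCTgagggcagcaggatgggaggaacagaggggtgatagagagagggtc
C1qc, chr4:136893066-136893164, minus strand: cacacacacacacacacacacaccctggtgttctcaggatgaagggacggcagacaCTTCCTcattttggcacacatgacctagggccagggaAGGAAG
Lyz2, chr10:117282322-117282522, minus strand: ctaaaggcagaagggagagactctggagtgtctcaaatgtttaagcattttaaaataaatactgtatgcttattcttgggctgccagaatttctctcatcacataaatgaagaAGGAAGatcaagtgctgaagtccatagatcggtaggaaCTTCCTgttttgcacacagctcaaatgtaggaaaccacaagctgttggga
Cd68, chr11:69666171-69666420, minus strand: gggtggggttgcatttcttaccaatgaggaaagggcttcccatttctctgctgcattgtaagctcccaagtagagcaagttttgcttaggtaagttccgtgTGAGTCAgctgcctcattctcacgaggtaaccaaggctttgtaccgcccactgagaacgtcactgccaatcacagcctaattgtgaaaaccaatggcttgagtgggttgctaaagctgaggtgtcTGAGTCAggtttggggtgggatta
Promoters of 7 of the 10 genes matched the RefSeq table (C1qb, C1qc, Cd68, Cx3cr1, Aif1, Lyz2 and Ctss). In the 250 bases upstream of the RefSeq start, AGGAAG was found in 3 of the 7 (C1qb, C1qc and Lyz2) and in 29.2% of all 27025 promoters searched on both strands. The longer form GAGGAAGT, which contains it, was found in C1qc and in 2.44% of all promoters, TGAGTCA in Cd68 and in 4.43%, and TATAAA in Ctss and in 12.97%. For C1qc, Lyz2, Aif1 and Cx3cr1 the RefSeq start lies inside the gene as annotated by GENCODE, so the 250 bases searched there include annotated gene sequence.

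Gene counts per library ranged from 217173 (WT Dnmt1 RIP library 1) to 4913482 (cortex input). Between 4.01 and 63.5% of a library's gene counts lay in 4 genes, Lars2, Gm42418, Gm26917 and Gm10800. Levels are therefore given as CPM, counts per 1000000 counts outside these 4 genes. They carry 95% exact Poisson intervals where printed, which cover counting error only, and a count of 0 allows up to 3 counts, from 0.656 CPM (cortex input) to 31.5 CPM (fibroblast input). Fibroblast m5C WT library 1 was not separate from the Hom m5C library: it held at least as many counts in all 31017 genes and exactly as many in 7163 (36.7%) of the 19511 genes detected in Hom. Of the 10 macrophage genes, 6 had identical counts in the pair and the largest difference was 10 counts. The comparisons of tissues, of m5C genotypes, with input and of antibodies are therefore also given without these libraries. The counts over other gene lists and the interactions between antibody and genotype are given only with them. The tissue labels were checked against marker lists. In the cortex m5C libraries the 12 neuron markers summed to 8228 to 8420 CPM and the 12 fibroblast markers to 656 to 738. In the fibroblast m5C libraries the order was the opposite, with 508 to 1100 CPM of neuron and 28056 to 35749 CPM of fibroblast markers. The 6 Dnmt1 RIP libraries, labelled fibroblast, held 3185 to 5124 CPM of neuron markers, with all 12 above 3 counts in every library, and 1113 to 23055 CPM of fibroblast markers. The fibroblast input held 2755 CPM of neuron and 2334 CPM of fibroblast markers. The part of these brain transcripts in the results on Dnmt1 RIP and on fibroblast input was not tested.

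The fibroblast m5C RIP held macrophage transcripts at high levels. The 10 genes summed to 11945 CPM in WT library 1 (95% interval 11707 to 12186), 7531 in WT library 2 (7374 to 7690), 7857 in Het (7736 to 7978) and 13954 in Hom (13676 to 14237). These are tail fibroblast lines, and genes made by fibroblasts were the higher group in the same libraries: Col1a1, the main chain of type I collagen, stood at 15782 to 20428 CPM. Lyz2 was counted 5401 and 4666 times in the WT libraries, 8899 times in Het and 5391 times in Hom, which is 6728, 4007, 4285 and 7862 CPM. It made up 53.2 to 56.3% of all counts in the 10 genes. C1qa stood at 1421, 937, 848 and 1661 CPM in the same order, C1qc at 954, 617, 635 and 1117 CPM, and C1qb at 775, 495, 571 and 907 CPM. Together the C1q chains took a nearly constant 26.1 to 27.2% of the 10 genes' counts. The receptor Csf1r was at 739, 404, 445 and 862 CPM. Its exons share 873 bases with the antisense gene Hmgxb3, and without a stated strand setting reads of this pair cannot be told apart. The lysosomal genes followed, Ctss at 586, 368, 388 and 685 CPM and Cd68 at 320, 205, 246 and 375 CPM. The surface protein Adgre1 stood at 233, 137, 175 and 264 CPM. In 9 of the 10 genes the highest library was Hom and the next WT library 1, the pair that shares counts. Cx3cr1 differed, with 154 CPM in WT library 1, 336 in WT library 2, 242 in Het and 181 in Hom, so its highest library was WT library 2. Aif1 was the lowest, at 34.9, 24.0, 21.7 and 40.8 CPM from 28 to 45 counts. Lyz1, the near-identical copy next to Lyz2, had 0 to 9 counts in any library, and the handling of reads that match both copies was not given in the sources used here. Per kilobase of exon, the mean level in fibroblast m5C RIP ran from Lyz2 (4347 CPM per kb) through C1qa (1170), C1qb (632), C1qc (430), Ctss (373), Cd68 (228), Csf1r (106), Adgre1 (62.5) and Cx3cr1 (50.7) to Aif1 (19.8). Among neighbours in this order, the ranges over the 4 libraries did not overlap between Lyz2 and C1qa, between Cd68 and Csf1r or between Cx3cr1 and Aif1, and overlapped between all other neighbours.

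**Figure D1:**
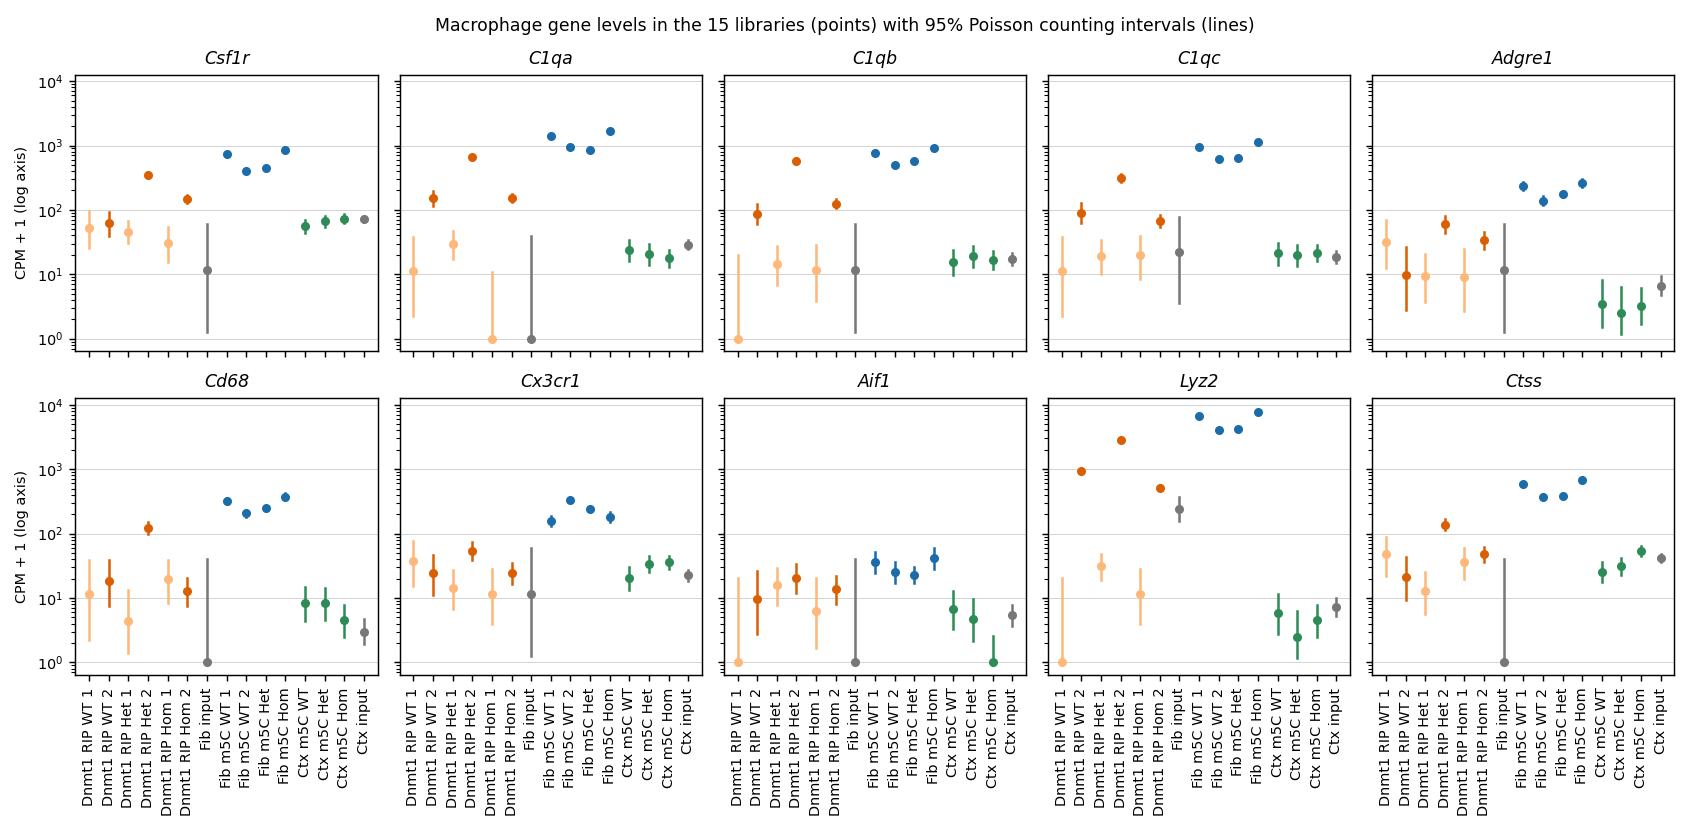
Level of each of the 10 genes in the 15 libraries, as CPM + 1 on a log axis, with 95% Poisson counting intervals as vertical lines. Dnmt1 RIP libraries numbered 1 are pale orange and those numbered 2 dark orange, fibroblast (Fib) m5C RIP blue, cortex (Ctx) m5C RIP green and inputs grey. Lyz2 spans 4007 to 7862 CPM in fibroblast m5C RIP and 1.46 to 4.88 CPM in cortex m5C RIP.

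Cortex held the same genes at a low level and in another order. The sum of the 10 genes was 176 CPM in WT (154 to 201), 200 in Het (177 to 225) and 223 in Hom (204 to 243), beside 213 in cortex input (200 to 227). Csf1r was the most counted, at 54.5, 65.6 and 72.1 CPM in WT, Het and Hom. Ctss stood at 24.4, 30.6 and 53.5 CPM and Cx3cr1 at 19.5, 32.8 and 34.8 CPM. The C1q chains were close to each other, C1qa at 22.8, 19.7 and 16.9 CPM, C1qb at 14.6, 18.2 and 15.6 CPM and C1qc at 20.3, 18.9 and 20.4 CPM. Cd68 had 8 to 10 counts in each library. Lyz2 had 6, 2 and 8 counts and Adgre1 3, 2 and 5. Aif1 had 7 counts in WT, 5 in Het and 0 in Hom, where a count of 0 allows up to 1.30 CPM. Csf1r, Ctss and Cx3cr1 together made up 55.8% of the 10 genes' counts in WT (exact binomial interval 48.9 to 62.5), 64.6% in Het (58.6 to 70.3) and 72.1% in Hom (68.0 to 75.9), against 12.4 to 14.7% in the fibroblast m5C libraries. Lyz2 took 0.730 to 2.76% of them. Per kilobase, Ctss led (26.6 CPM per kb), ahead of C1qa (19.0), C1qb (14.9), Csf1r (11.1), C1qc (10.3) and Cx3cr1 (6.44), with Lyz2 (2.48), Aif1 (2.03) and Adgre1 (0.625) among the last. Among neighbours in this order, the ranges over the 3 libraries did not overlap between C1qb and Csf1r or between C1qc and Cx3cr1, and overlapped between all others. Cd68 (4.79) lay between Cx3cr1 and Lyz2.

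**Figure D2:**
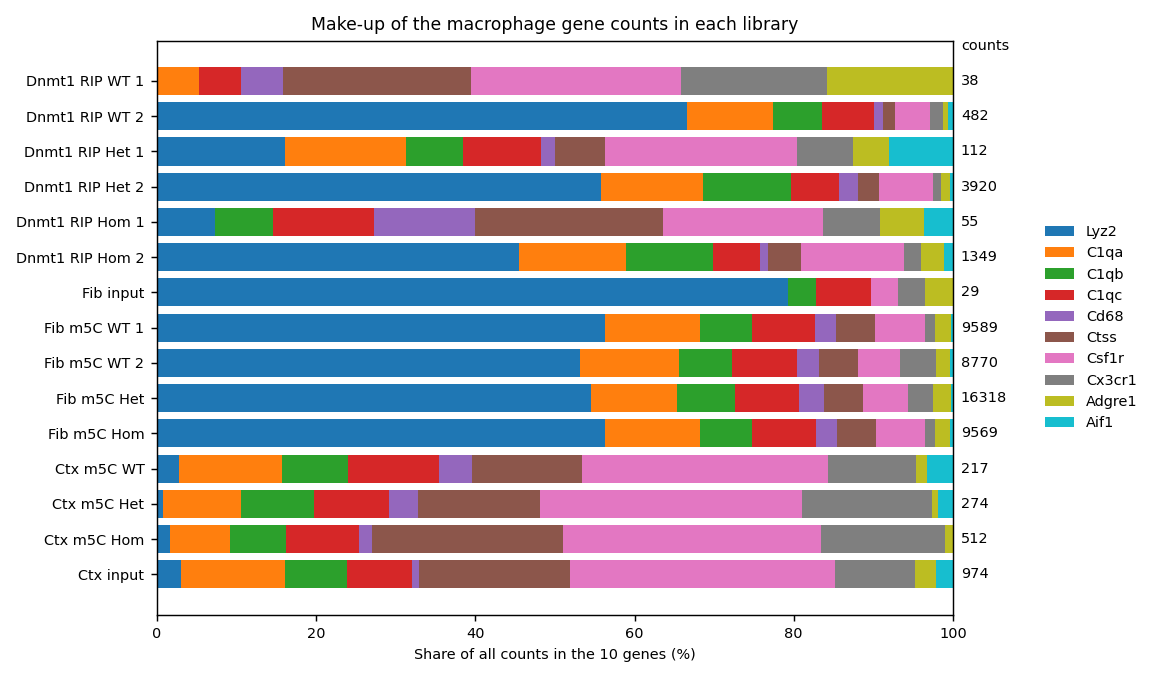
Share of each gene in the counts of all 10 genes (x axis, %), 1 bar per library, with the number of counts at the right. Lyz2 fills 53.2 to 56.3% of the fibroblast m5C bars and 45.5 to 66.6% of the Dnmt1 RIP bars numbered 2, but 0 to 16.1% of the Dnmt1 RIP bars numbered 1 and 0.730 to 2.76% of the cortex m5C bars.

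Between the tissues, every one of the 10 genes was higher in the m5C RIP of fibroblasts than in that of cortex. The fit held 7 libraries with genotype as a covariate and used edgeR's quasi-likelihood test, with p-values adjusted by Benjamini-Hochberg and called below 0.05. All 10 genes passed it as higher, where 33% of the 14193 genes tested were called higher and 63.9% were called in either direction. The median log2 fold change of the 10 was 5.52, beside 0.06 over all genes tested. Lyz2 differed by 10.91 ± 0.39 on the log2 scale (SE, edgeR adjusted p = 2.89e-10). Adgre1 followed with 6.76 ± 0.33 and C1qa with 6.03 ± 0.29 (edgeR adjusted p = 1.20e-09 and 1.12e-09). Cd68, C1qb and C1qc lay between 5.49 and 5.78, Ctss at 3.98 ± 0.24, Aif1 at 3.51 ± 0.62 and Csf1r at 3.36 ± 0.24. Cx3cr1 had the smallest difference, 3.08 ± 0.32 (edgeR adjusted p = 1.00e-06). For each of the 10 genes the lowest fibroblast library lay above the highest cortex library, and the share over all genes is not given here. With fibroblast m5C WT library 1 and the Hom library both left out, all 10 were still called higher, and the median was 5.14. Fibroblast markers moved with these genes: 10 of the 11 tested were called higher, Col1a1 by 8.97 ± 0.32, and all 12 neuron markers were lower. Their part in the result was not tested.

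Other macrophage genes were also mostly higher in fibroblasts. Of 30 further genes expressed by macrophages in general, 29 were tested and 28 called higher, with a median of 4.80. Fcer1g, the signalling chain of Fc receptors, differed by 7.54 ± 0.30, Cyba, a subunit of the phagocyte oxidase, by 7.02 ± 0.33, and Lcp1, the actin-bundling L-plastin of leukocytes, by 6.31 ± 0.28. Of 20 genes of macrophages outside the brain, 10 were tested and 8 called higher, with a median of 6.38. Ms4a7 differed by 9.70 ± 0.50, Pf4 (platelet factor 4) by 7.93 ± 0.50, Gpnmb by 6.84 ± 0.30 and Mrc1, the mannose receptor, by 5.92 ± 0.30. Of 15 genes used as microglia markers, 13 were tested, 7 called higher in fibroblasts and 1 lower. Only 9 of the 13 had positive values, with a median of 1.17. Among those higher were Fcrls (5.53 ± 0.33), Tmem119 (2.66 ± 0.26), Olfml3 and Sparc, a matrix protein that fibroblasts also make. Of 30 lysosome genes, 27 were called higher, with a median of 3.05, among them Ctsd (cathepsin D) by 5.96 ± 0.26 and Grn (progranulin) by 5.58 ± 0.25. Of 25 other complement genes 15 were tested, of which 11 were called higher and 2 lower. C1s1, a protease of the C1 complex, differed by 7.05 ± 0.42 and Cfp, properdin, by 4.59 ± 0.24. The ligands did not move together. Csf1, the Csf1r ligand, was higher in fibroblasts by 4.89 ± 0.35, at 573 to 1327 CPM against 25.2 to 38.6 in cortex. Il34, its other ligand, fell by 1.02 ± 0.30, and Cx3cl1, the Cx3cr1 ligand, fell by 2.75 ± 0.20, from 280 to 394 CPM in cortex to 39.4 to 56.7 in fibroblasts. Genes of other blood cells stayed low in fibroblast m5C RIP: the summed level of 10 neutrophil genes was 12.9 to 19.9 CPM, of 10 T cell genes 8.75 to 28.9, of 10 B cell genes 15.5 to 41.1 and of 8 mast cell genes 16.3 to 31.1. The sums were higher for 13 dendritic and Langerhans cell genes (45.7 to 66.1 CPM) and 8 osteoclast genes (71.5 to 111 CPM). All 3 osteoclast genes tested were called higher in fibroblasts.

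**Figure D3:**
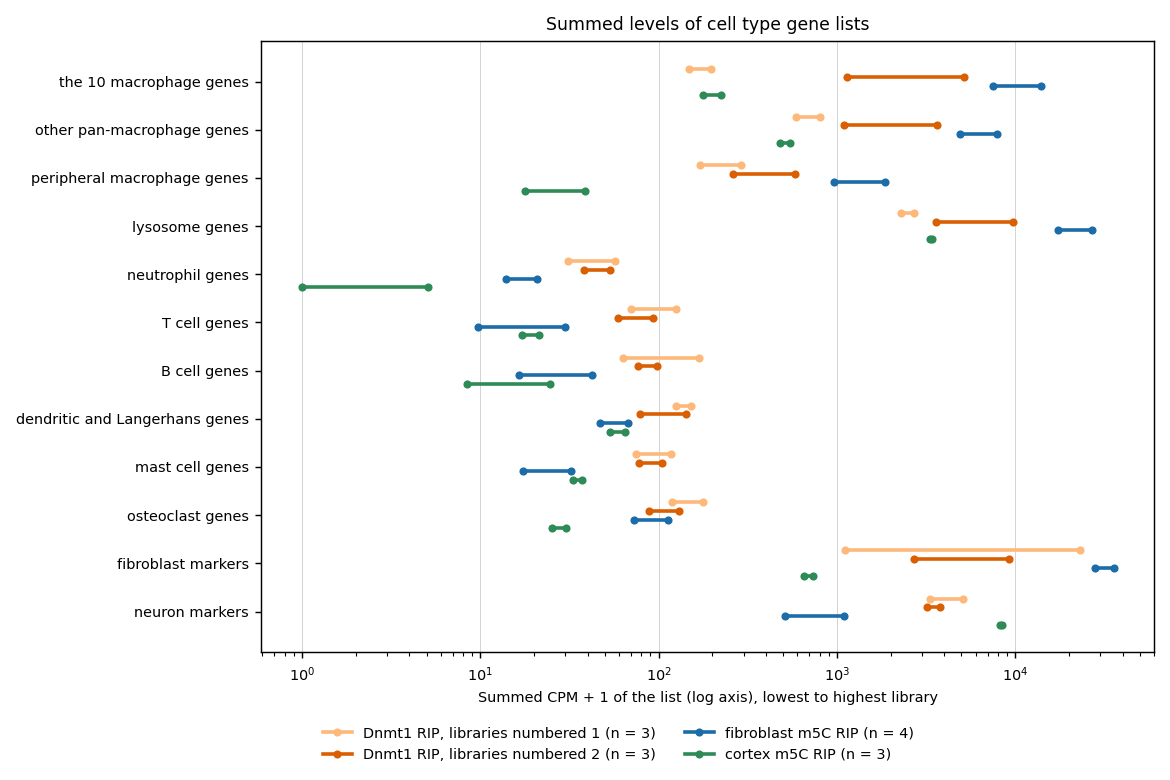
Summed level of each gene list as CPM + 1 on a log axis, from the lowest to the highest library of 4 kinds (points joined by a line). The 10 macrophage genes sum to 146 to 197 CPM in Dnmt1 RIP libraries numbered 1 and to 1133 to 5165 CPM in those numbered 2, whereas the neuron marker sums of these kinds overlap.

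In the Dnmt1 RIP, Lyz2 and the 3 C1q genes were higher in the libraries numbered 2 in the titles than in those numbered 1 in every genotype, while the other 6 genes followed the number less regularly. The 10 genes summed to 197 CPM in WT library 1 (139 to 270), 187 in Het library 1 (154 to 225) and 146 in Hom library 1 (110 to 190). The libraries numbered 2 held 1395 CPM in WT (1273 to 1525), 5165 in Het (5004 to 5329) and 1133 in Hom (1074 to 1196). What the number stands for was not given in the labels. Lyz2 was counted 0, 18 and 4 times in WT, Het and Hom library 1 and 321, 2185 and 614 times in the libraries numbered 2. That is 0, 30.1 and 10.6 CPM against 929, 2879 and 516 CPM. The ratio of number 2 to number 1 was 95.7-fold in Het (60.4 to 162) and 48.5-fold in Hom (18.9 to 179). In WT it was 59.8-fold when the 0 was set to 3 counts, with an exact lower limit of 48.4. C1qb was counted 0, 8 and 4 times against 30, 436 and 148 times, which is 86.8, 574 and 124 CPM in the libraries numbered 2. C1qa was counted 2, 17 and 0 times against 52, 502 and 181 times, which is 150, 661 and 152 CPM. C1qc was counted 2, 11 and 7 times against 31, 237 and 79 times. For these 4 genes every library numbered 2 lay above every library numbered 1. The share of all genes that did so is not given here. Csf1r stood at 51.8, 45.1 and 29.2 CPM against 60.8, 348 and 147 CPM, without overlap but nearly touching in WT. Cd68, Ctss, Cx3cr1, Adgre1 and Aif1 overlapped. Cd68 was at 10.4, 3.34 and 18.6 CPM against 17.4, 121 and 11.8 CPM, so it differed widely in Het and not in WT or Hom. Ctss was at 46.6, 11.7 and 34.6 CPM against 20.3, 137 and 47.1 CPM, and Adgre1 at 31.1, 8.35 and 7.97 CPM against 8.68, 59.3 and 32.8 CPM. Cx3cr1 spanned 10.6 to 36.2 CPM against 23.1 to 52.7 CPM, and Aif1 0 to 15.04 CPM against 8.68 to 19.8 CPM.

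With genotype in the fit, 4 of the 9 genes tested were called higher in the libraries numbered 2 and none lower, where 0.184% of the 13589 genes tested were called higher, 0.00736% lower and 0.191% in either direction. Aif1 did not pass the filter on low counts, so the count covers 9 of the 10. Lyz2 differed by 6.57 ± 0.66 (edgeR adjusted p = 0.00502), C1qb by 4.75 ± 0.54 and C1qa by 4.74 ± 0.56 (edgeR adjusted p = 0.00754 for both), and C1qc by 3.06 ± 0.49 (edgeR adjusted p = 0.0383). Lyz2 had counts of 0 in 1 library and so did C1qa and C1qb, and their fitted values depend on the prior count. Csf1r, at 1.99 ± 0.48, did not pass (edgeR adjusted p = 0.205), and Adgre1, Cd68, Ctss and Cx3cr1 had values of 0.91 to 1.77. The median over the 9 was 1.99, beside -0.00 over all genes tested. C1qc was no longer called without WT library 1 (3.02 ± 0.60, edgeR adjusted p = 0.127) or without WT library 2 (3.05 ± 0.60, edgeR adjusted p = 0.0689). Csf1r was called without Het library 1 (1.60 ± 0.44, edgeR adjusted p = 0.0171), a fit in which 306 genes were called higher. The make-up of the counts differed too. Lyz2 was 66.6, 55.7 and 45.5% of the 10 genes' counts in WT, Het and Hom library 2, and 0, 16.1 and 7.27% in the libraries numbered 1. Csf1r, Ctss and Cx3cr1 together were 68.4, 37.5 and 50.9% in the libraries numbered 1 and 7.47, 10.4 and 19.2% in those numbered 2. Of the 26 genes called in this comparison, 3 more were in the lists: Fcer1g (4.84 ± 0.76), Fcrls (4.16 ± 0.58) and Ctsd (3.11 ± 0.40). The other 19, looked at after their values were seen, included Spp1 (osteopontin), Lgals3 (galectin 3) and the chemokine Ccl3, which macrophages make, but also matrix genes such as Bgn (biglycan) and Cilp, mitochondrial genes such as mt-Co2 and the ribosomal protein gene Rpl29. Of 29 other macrophage genes in the tables, 25 were tested and 24 had positive values, with a median of 1.52. The sum of the 29 was 590 to 808 CPM in the libraries numbered 1 and 1091 to 3635 in those numbered 2. The more specific lists followed the number less. Of the genes of macrophages outside the brain, 8 were tested, 0 called and 5 positive, with a median of 0.35. Their sums overlapped, at 171 to 290 CPM in the libraries numbered 1 and 261 to 584 CPM in those numbered 2. Of the microglia markers, 11 were tested and 8 were positive, with a median of 0.46. The 12 fibroblast markers summed to 1113, 23055 and 1592 CPM in WT, Het and Hom library 1 and to 2711, 9215 and 3278 CPM in library 2, so in Het they were higher in the library where the macrophage genes were lower. None of the 10 fibroblast markers tested was called. Sequencing depth moved with the number in part, with 217173, 814262 and 1029457 gene counts in the libraries numbered 1 and 463133, 804887 and 1362757 in those numbered 2, and its part was not tested.

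**Figure D4:**
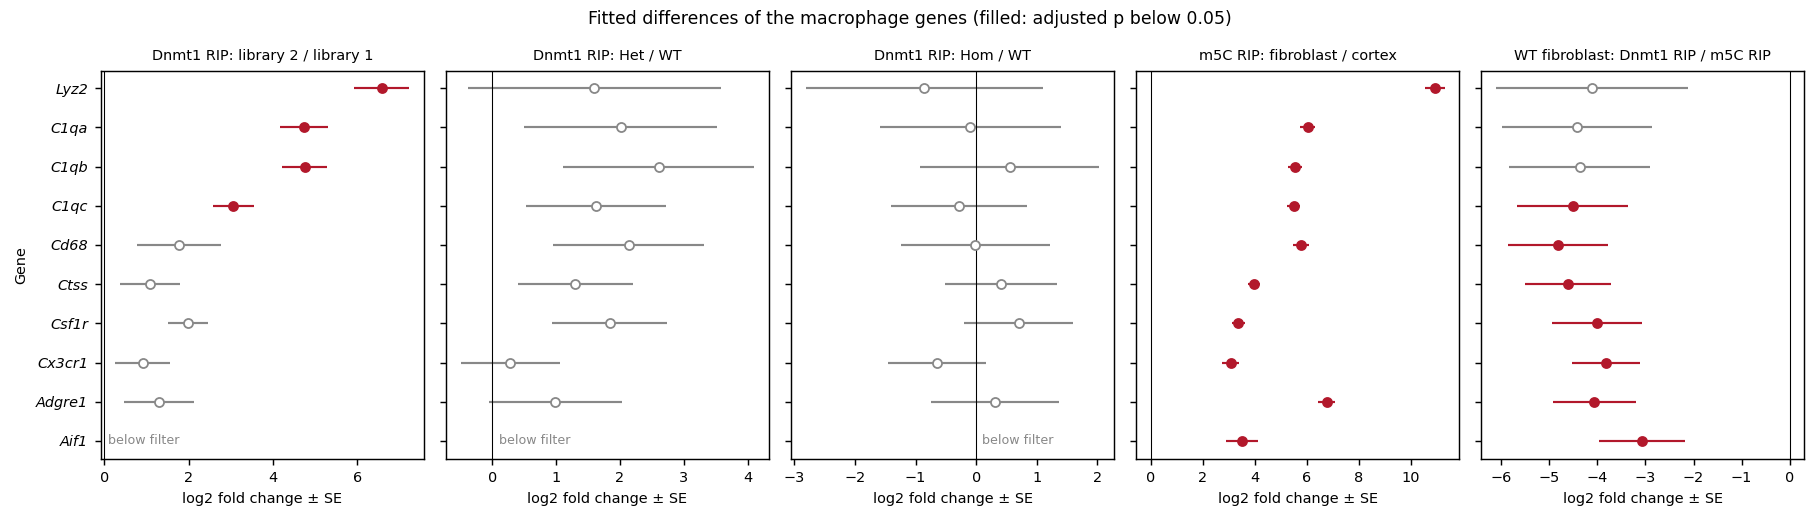
Fitted log2 fold change (points) with its standard error (bars) for each gene in 5 comparisons, each on its own x axis. Filled red points have an edgeR adjusted p below 0.05, open grey points do not. All 10 genes are red for fibroblast against cortex m5C RIP, 4 for Dnmt1 RIP library 2 against library 1, and none for Het or Hom against WT in the Dnmt1 RIP.

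Between genotypes in the Dnmt1 RIP no macrophage gene passed the test. The fit held 6 libraries, and the 3 comparisons share their libraries. For Het against WT, 0 of 9 genes tested were called, where 0% of 13589 genes were called, and none of the 9 had an unadjusted p under 0.05, a level that 602 genes reached as higher and 266 as lower. DESeq2 called 26 genes as higher, none of them among these 9. All 9 values were positive, with a median of 1.62 beside 0.03 over all genes. C1qb stood highest at 2.61 ± 1.499, Cd68 at 2.14 ± 1.19, Csf1r at 1.84 ± 0.90 (edgeR adjusted p = 0.804) and Lyz2 at 1.60 ± 1.98. These values rested on Het library 2: without it the median turned to -1.36. On total counts in place of TMM factors, 5 of the 9 had an unadjusted p under 0.05 and none was called. Over all 13589 genes, 353 reached that level as higher and 112 as lower. With no filter on low counts, 3 of the 10 genes were called higher, among 28972 genes tested of which 179 were higher and 13 lower. Within the libraries numbered 2, the 10 genes together were 3.70-fold higher in Het than in WT (counting interval 3.37 to 4.08), and within those numbered 1 the ratio was 0.95 (0.65 to 1.41). For Hom against WT, 0 of 9 genes were called, where 0% of all genes were, with a median of -0.02 and 4 of 9 positive. At an unadjusted p under 0.05 there were 165 higher and 144 lower genes, none of them among these 9, and DESeq2 called 0 genes. The Hom to WT ratio of the 10 genes together was 0.74 (0.48 to 1.16) in the libraries numbered 1 and 0.81 (0.73 to 0.90) in those numbered 2. In the latter the genes went separate ways. Lyz2 was lower in Hom than in WT (ratio 0.56, 0.48 to 0.64), Csf1r higher (2.42, 1.53 to 4.01), and C1qa close (1.01, 0.739 to 1.404), and the sum without Lyz2 had a ratio of 1.33 (1.12 to 1.58). These intervals cover counting error of single libraries only. For Hom against Het, 0 of 9 genes were called, where 0% of all genes were. All 9 values were negative, with a median of -1.90 beside -0.02 over all genes, and without Het library 2 the median was 1.35. At an unadjusted p under 0.05 there were 180 higher and 449 lower genes, none of them among these 9. DESeq2 called 15 genes as lower, again none of these 9. On total counts, which moved the median of all genes to -0.36, 5 of the 9 had an unadjusted p under 0.05 and none was called. Over all genes there were 32 higher and 389 lower at that level. With no filter on low counts 4 of the 10 were called lower, where 110 of 28972 genes were. In a joint fit of 10 fibroblast libraries the Het and the Hom effect were not shown to differ between Dnmt1 RIP and m5C RIP. The fit cannot decide this for Hom, because its m5C WT group includes library 1, which contains the Hom counts. Its estimates were also imprecise, with standard errors of the 10 genes reaching 2.89 (Lyz2, Het interaction). None of the 10 genes was called in either interaction, where 0% of 17124 genes were called and none of the 10 had an unadjusted p under 0.05. That level was reached by 423 higher and 150 lower genes for Het and by 179 and 24 for Hom.

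In the m5C RIP of both tissues, genotype changed no macrophage gene past the threshold. For Het against WT, 0 of 10 genes were called, where 0% of 14193 genes were, and DESeq2 called 0 genes as well. The values lay between -0.40 and 0.11 with a median of -0.11, and none had an unadjusted p under 0.05, which 178 genes reached as higher and 386 as lower. For Hom against WT, 0 of 10 were called, where 0% of all genes were, and DESeq2 again called 0 genes. At an unadjusted p under 0.05 there were 40 higher and 82 lower genes. The median was 0.37 with 8 of 10 values positive, and it was -0.00 without the fibroblast Hom library. Ctss had the smallest p, 0.72 ± 0.24 (unadjusted p = 0.0107, edgeR adjusted p = 1.00). Without WT library 1 alone, which contains the Hom counts, still none of the 10 was called. At an unadjusted p under 0.05 there were 6 of the 10, and the count over all genes is not given here. The median was then 0.57, Ctss stood at 0.94 ± 0.25 (edgeR adjusted p = 0.117), and 3 higher and 14 lower genes of 14064 were called. In cortex Ctss was counted 30 times in WT, 42 in Het and 123 in Hom, a Hom to WT ratio of 2.19 (1.46 to 3.39), and Cx3cr1 24, 45 and 80 times, a ratio of 1.78 (1.12 to 2.94). Aif1 went the other way, with 0 counts in Hom against 7 in WT (upper limit 0.37), and the intervals of the other 7 genes held 1. With 1 library per genotype in cortex these ratios have no replicate check. In fibroblasts, against WT library 2, Het was at 1.04 (1.02 to 1.07) for the 10 genes together, and Hom at 1.85 (1.80 to 1.91). In Hom, 8 of 10 genes had counting intervals above 1 and Cx3cr1 had one below it (0.54, 0.44 to 0.66). These intervals cover counting error of single libraries only, and the share of all genes with such intervals is not given here. WT library 1, which contains the Hom counts, cannot serve as a second WT value for this comparison. With that library and the Hom library left out, none of the 10 was called in either comparison, with medians of 0.03 (Het) and 0.10 (Hom, from cortex alone).

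Against input, the tissues gave different pictures. Over both tissues 0 of 10 genes were called, where 0.0552% of 14501 genes were called, all lower. At an unadjusted p under 0.05 there were 183 higher and 604 lower genes. The median of the 10 was 1.17 beside 0.27 over all genes. Only Cd68 had an unadjusted p under 0.05 (2.84 ± 0.93, edgeR adjusted p = 0.476), and DESeq2 called 1 of the 10, also Cd68, where it called 15 of 14501 genes higher and 170 lower. In cortex the 10 genes together stood at 0.83 (0.71 to 0.96), 0.94 (0.82 to 1.07) and 1.05 (0.94 to 1.16) of the input in WT, Het and Hom m5C RIP. Cd68 had 9 counts in the cortex input and ratios of 3.72 (1.31 to 10.6) in WT, 3.70 (1.35 to 10.3) in Het and 1.77 (0.59 to 5.16) in Hom. Cx3cr1 was at 0.91 (0.56 to 1.44), 1.53 (1.05 to 2.20) and 1.62 (1.19 to 2.20). Other genes had intervals below 1: Ctss in WT (0.61, 0.40 to 0.90), Lyz2 in Het (0.23, 0.027 to 0.91) and C1qa in Hom (0.61, 0.41 to 0.87). Aif1 in Hom had 0 counts against 20 in input (upper limit 0.40), whereas Ctss in Hom was above 1 (1.33, 1.05 to 1.68). In WT, Het and Hom the intervals of 8, 7 and 6 of the 10 genes held 1. The fibroblast input held 29 counts in the 10 genes, 23 of them Lyz2 (242 CPM), and no other gene was above 3 counts. Against it, the 10 genes together were 24.7-fold higher in fibroblast m5C WT library 2 (17.2 to 36.9) and Lyz2 16.6-fold (11.03 to 26.2). C1qa, with 0 counts in input, was 29.7-fold higher against 3 counts (exact lower limit 24.1). Other genes rose too: fibroblast markers summed to 2334 CPM in this input and 28056 to 35749 CPM in fibroblast m5C RIP. Lysosome genes summed to 2019 CPM against 17314 to 27104 CPM. This input held only 95107 counts outside the 4 dominant genes, and its part in the ratios was not tested. Without the fibroblast input the median of the 10 was -0.27 with 3 of 10 positive. Without the cortex input 9 of 10 were called higher with a median of 6.39, beside a median of 5.86 over all genes, of which 4642 of 14286 were called higher and 1174 lower. Without m5C WT library 1 and Hom none of the 10 was called, with a median of 1.19.

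Comparing the antibodies in WT fibroblasts, the macrophage genes were lower in the Dnmt1 RIP than in the m5C RIP. Of the 10 genes, 7 were called lower, where 10.4% of the 17124 genes tested were called lower, 3.28% higher and 13.7% in either direction. The median was -4.24 beside 0.07 over all genes. Cd68 fell by 4.83 ± 1.04, Ctss by 4.61 ± 0.90, C1qc by 4.51 ± 1.15, Adgre1 by 4.06 ± 0.86, Csf1r by 4.01 ± 0.94, Cx3cr1 by 3.82 ± 0.70 and Aif1 by 3.07 ± 0.89 (edgeR adjusted p from 0.00644 to 0.0351). C1qa (-4.43 ± 1.56), C1qb (-4.37 ± 1.47) and Lyz2 (-4.11 ± 2.001) did not pass, with edgeR adjusted p of 0.0708, 0.0612 and 0.178. For each of the 10 genes both Dnmt1 RIP libraries lay below both m5C libraries, of which WT library 1 contains the Hom counts. How many of all genes were separated in this way is not given here. With total counts in place of TMM factors, which moved the median of all genes to 0.66, 8 of the 10 were called lower, and the split of all calls was 454 higher to 406 lower instead of 561 to 1784. The calls, over all genes as over these 10, rested on single libraries. None of the 10 was called without WT Dnmt1 RIP library 1, where 3 of 16869 genes were called and the median of the 10 was -3.67, or without m5C WT library 2, where 0 of 16829 were called and the median was -4.40. Of the 10, 2 were called without Dnmt1 RIP library 2 or without m5C WT library 1, and 2 with m5C WT library 1 and the Hom library both left out. Fibroblast markers moved alike, 9 of 10 tested being called lower, and 5 of 12 neuron markers were called higher. Among the other lists, 21 of 29 macrophage genes, 24 of 30 lysosome genes and the ligand Csf1 (-4.79 ± 0.76) were called lower.

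Across the 11 fibroblast libraries, the genes whose level most resembled the mean of the 10 were sought among 11785 genes with at least 100 counts that were detected in at least 8 libraries. Likeness was Pearson's correlation of log2(CPM + 1), given as a description, since the libraries fall into separate kinds and may share cell lines. Ftl1, the ferritin light chain, came first (r = 0.995), with at most 259 CPM in Dnmt1 RIP libraries numbered 1, at least 910.0 CPM in those numbered 2, 4697 to 7799 CPM in fibroblast m5C RIP and 84.5 to 96.9 CPM in cortex m5C RIP. Among those that followed were Ctsz (cathepsin Z, 0.986), Gdf15 (0.985), Cd300c2 (0.984), Rps7 (0.982), Ccl3 (0.981), Stab1 (stabilin 1, 0.980), Clec4n (dectin 2, 0.980) and Fstl1 (0.979). Of those named, Ctsz was in the lysosome list and Clec4n in the list of macrophages outside the brain. Among the 10 macrophage genes themselves, C1qc had the highest correlation with their mean, which includes it (0.984), and Aif1 the lowest (0.863).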

How the data were processed

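The 10 members and all gene lists were chosen with earlier results of these data known. The deposited tables hold raw counts per gene, 1 table per library. Per the submitters' processing notes, the tools were Trim Galore 0.4.1, HISAT2 and featureCounts and the build was mm10; strand setting and annotation were not given in the sources used here. In 6 tables, 5 entries for reads outside genes were left out of library sizes and tests. Unaligned reads were 63.2 to 89.5% of the reads counted in those tables. Per the labels' protocols, both ribosomal RNA depletion and polyA enrichment were used.

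Groups came from the titles. Coordinates and exon lengths came from GENCODE M21, which matched 30464 of the 31017 genes. All tests were made in R 4.3.3 by edgeR 4.0.16 with filterByExpr (minimum count 10, total 15), TMM factors, glmQLFit and glmQLFTest, with adjustment over all genes tested. Standard errors are the fold change over the square root of F. Groups with 1 library were assumed to vary like the others. Each fit was tested on simulated data. Alternatives were RLE factors, total counts alone, no filter, DESeq2 1.42.0, removal of the 4 dominant genes, fits of 2 genotypes or of fibroblasts alone, the library number as a block, and leaving out each library. Leaving out m5C WT library 1 with Hom, the interactions and the ratios of single libraries were chosen after seeing the data. Named genes were the 10 members, up to 4 genes of another list with the smallest p or highest level, and the 10 most alike in pattern, of which 1 is not reported here. Count ratios carry exact 95% intervals. Tables and plots came from Python 3.11.15 (SciPy 1.17.1, numpy 2.4.6, pandas 2.3.3, matplotlib 3.10.9).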

Additional observations from a re-analysis of the deposited data

How the results depend on the processing

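Levels on the total of all genes were 36.5 to 96.0% of those printed. All 10 genes were called higher in fibroblasts than in cortex under every alternative run, with medians of 5.26 to 5.69 when 1 library was left out and 5.14 without both m5C WT library 1 and Hom. With no filter on low counts, 3 of the 10 genes were called for Het against WT in the Dnmt1 RIP (192 of 28972 genes) and 4 of the 10 for Hom against Het (113 genes); the cause was not tested. DESeq2 called 1 of the 10 for m5C RIP against input (15 higher and 170 lower over all genes). For WT Dnmt1 RIP against m5C RIP, 2 were called without m5C WT library 1 and Hom, and 0 to 9 when 1 library was left out, with medians of -6.23 to -3.67. Leaving out 1 library moved the medians in the Dnmt1 RIP from -1.36 to 3.49 (Het against WT; lowest without Het library 2, highest without WT library 2), from -1.31 to 1.62 (Hom against WT; without Hom library 2 and WT library 2) and from -2.52 to 1.35 (Hom against Het), with 0 calls each time. It moved Hom against WT in the m5C RIP from -0.0024 to 0.57, and m5C RIP against input from -0.27 with 0 called to 6.39 with 9 called. Without Het library 2, all 9 genes tested turned direction for Het against WT and for Hom against Het. Of single genes, values ranged across 0 for Cd68 (-0.040 to 3.49) and Ctss (-0.10 to 1.92) between Dnmt1 RIP libraries 2 and 1, and, among those 9, for Het against WT in C1qb (-1.66 to 10.5), Csf1r (-0.10 to 2.68), Lyz2 (-3.81 to 12.8) and Cd68 (-1.81 to 3.10). With the library number as a replicate block, 0 genes were called between genotypes. The medians were 1.51, -0.05 and -1.55 (Het against WT, Hom against WT, Hom against Het). In the same order, 5, 0 and 4 of 9 genes had an unadjusted p under 0.05, and the counts over all genes are not given here. Over 13589 genes, the differences of library 2 from library 1 correlated little between genotypes. The values of r were -0.01 (WT and Het), 0.20 (WT and Hom) and 0.06 (Het and Hom). The numbers were therefore not taken as pairs in the genotype fits, although Lyz2 and the 3 C1q genes followed them in every genotype. The fibroblast input held 29 counts in the 10 genes and the Dnmt1 RIP libraries numbered 1 held 38, 112 and 55, which limits the precision there.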
